A study of Mus musculus with 9 samples.

Results

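Gclc, Txnrd1, Prdx1 and Hmox1 are 4 genes of oxidant defence that the transcription factor NRF2 is known to switch on, and their RNA was followed in mouse lung after mechanical ventilation at high pressure and after endotoxin. They were chosen by name, with earlier results of these data known. Each is measured by 1 probe (probe 9902 for Gclc, 6771 for Txnrd1, 5667 for Prdx1 and 5331 for Hmox1) of the 10012 on the array, which stand for 8841 named genes. Total RNA of lung tissue was measured on 9 arrays in 3 groups of 3. The overventilation group had 3 h of mechanical ventilation at 25 cmH2O, the LPS group was injected with E. coli lipopolysaccharide at 3 mg/kg, and the control group is labelled only as control. The labels give no strain, genotype, age or sex, no time between injection and sampling, no statement of how controls were handled, and do not say whether each sample is another animal. P-values therefore cover only how far these samples spread, and that spread could be technical.

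Each deposited value is a ratio to the mean of the control arrays for the same probe. Values below are log2 ratios, so 0 is the control mean, 1 is a doubling, and levels of different genes cannot be set against each other. In whole lung tissue, fewer cells of a type and less RNA per cell cannot be told apart. The lowest values of many probes lie at a fixed floor of their array, and 5710 probes that rose far enough above it, or showed no floor, were tested. All 4 genes were among the tested probes with no floor in sight, so for each gene at most 1 array, the one nearest to its own array's floor, could lie at it. By this distance, and not by the log2 ratio itself, that array is control array 3 for Gclc, Txnrd1 and Prdx1, whose differences from control would then be too small, and overventilation array 3 for Hmox1, whose difference would then be too large. The median of all tested probes lay between -0.12 and 0.09 on the 9 arrays. Overventilation array 3 had the widest spread, with an interquartile range of -0.67 to 0.69, and on it 110 probes lay more than 1.5 log2 units above all other arrays, against 0 to 6 on each other array. None of the 4 genes is among these 110, while 6 genes of the oxidant defence lists described further on are, namely Chac1, Ftl1, Glrx, Gpx2, Gstt1 and Txnip.

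NRF2, encoded by Nfe2l2, is bound by KEAP1 in the cytoplasm and handed to degradation as long as the cell is not stressed. Oxidants and electrophiles modify cysteines of KEAP1, NRF2 then accumulates, pairs with small MAF proteins and binds antioxidant response elements near its target genes. In the lung the pathway is known for protecting the epithelium against inhaled oxidants and high oxygen. Gclc encodes the catalytic subunit of glutamate-cysteine ligase, the rate-limiting enzyme of glutathione synthesis. Txnrd1 encodes the cytosolic thioredoxin reductase, which keeps thioredoxin reduced with NADPH. Prdx1 encodes a peroxiredoxin that removes hydrogen peroxide and is itself recycled by thioredoxin. Hmox1 encodes the inducible heme oxygenase, which splits heme into biliverdin, carbon monoxide and iron, and is also repressed by BACH1.

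Promoter sequences of 300 bases, reaching from 250 before to 50 after a transcription start, were available from RefSeq (build GRCm38.p6) for 2 of the 4 genes, with 3 starts for Txnrd1 and 1 for Prdx1. They are shown because no window was available for Gclc and Hmox1. Txnrd1 and Prdx1 act in the same enzyme chain. The core of the antioxidant response element was searched as TGACNNNGC on both strands. It was found, in both cases on the strand opposite to the gene, in the window of the second Txnrd1 start, 92 to 84 bases before it, and in that of Prdx1, 133 to 125 bases before the start, and in neither of the other Txnrd1 windows. The same core is present in 12.4% of 32851 mouse promoter windows of this length. The motif of AP-1, searched as TGANTCA, which reads the same on both strands, occurs at 2 places in the Prdx1 window, 237 to 231 and 131 to 125 bases before the start, the second of them inside the match to the response element. It is in 7.81% of all windows and in no Txnrd1 window. Both windows are given 5′ to 3′ on the gene's plus strand, with all motif matches in capitals, Txnrd1 at chr10:82858956-82859255 and Prdx1 at chr4:116685349-116685648.
Txnrd1 second start: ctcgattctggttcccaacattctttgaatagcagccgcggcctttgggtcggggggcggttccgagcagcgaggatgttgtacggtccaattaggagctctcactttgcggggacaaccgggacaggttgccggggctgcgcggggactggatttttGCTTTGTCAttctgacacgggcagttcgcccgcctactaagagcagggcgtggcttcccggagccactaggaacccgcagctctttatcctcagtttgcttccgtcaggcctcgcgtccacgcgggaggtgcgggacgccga
Prdx1: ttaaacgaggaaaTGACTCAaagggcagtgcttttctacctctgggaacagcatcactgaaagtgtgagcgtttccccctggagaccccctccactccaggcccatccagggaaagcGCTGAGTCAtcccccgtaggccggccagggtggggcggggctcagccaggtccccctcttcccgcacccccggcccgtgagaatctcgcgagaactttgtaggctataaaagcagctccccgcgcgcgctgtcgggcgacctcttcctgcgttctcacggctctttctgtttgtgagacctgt
A match describes the letters only, since binding was not measured here. Gclc and Hmox1 are named only.

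Lungs ventilated at high pressure were set against control lungs. All 4 genes had a higher mean after overventilation, by 4.18-fold for Gclc, 4.05-fold for Txnrd1, 2.21-fold for Prdx1 and 1.69-fold for Hmox1. For each of them every overventilation array lay above every control array, which was so for 9.12% of the tested probes. Because the 4 genes were chosen with earlier results of these data known, setting them beside that share is a description and no test. None passed limma's test after adjustment over all probes, where 0% of probes did, so these are differences in the samples and not calls. With 3 samples a group an exact permutation test cannot go below p = 0.1. Groups without overlap always give that value, as for these 4 genes, so the test adds nothing to the lack of overlap. Before adjustment, limma's p was under 0.05 for 3 of the 4, with Hmox1 the exception, and for 14.9% of tested probes.

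Gclc had log2 ratios of 1.30, 2.02 and 2.87 on overventilation arrays 1 to 3, against -0.63, 0.65 and -0.02 on control arrays 1 to 3. Array 3 was the highest and array 1 the lowest of the overventilated samples, and the gap between the groups was narrower than the range within either. The fitted log2 difference was 2.06 with a standard error of 0.52 (95% interval 0.90 to 3.23, limma adjusted p = 0.193). Of all tested probes 0.963% had a larger difference. Without overventilation replicate 3 it was 1.66.

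Txnrd1 lay at 1.30, 2.60 and 2.16 on overventilation arrays 1 to 3, against -0.29, 0.89 and -0.61 on control arrays 1 to 3. Here array 2 was the highest of both groups. The log2 difference was 2.02 with a standard error of 0.61 (95% interval 0.65 to 3.39, limma adjusted p = 0.214), and 1.03% of tested probes had a larger one.

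Prdx1 lay at 1.37, 0.98 and 1.09 on overventilation arrays 1 to 3, the closest agreement within that group among the 4 genes, with 1.14 ± 0.20 (SD, n = 3) as mean. On control arrays 1 to 3 it lay at 0.39, 0.06 and -0.45. The log2 difference of 1.14 had a standard error of 0.33 (95% interval 0.40 to 1.89, limma adjusted p = 0.206). Of all tested probes 5.67% had a larger difference.

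Hmox1 had the smallest difference of the 4. It lay at 0.73, 1.12 and 0.42 on overventilation arrays 1 to 3, against -0.31, 0.09 and 0.22 on control arrays 1 to 3, so overventilation array 3 and control array 3 were close. The log2 difference was 0.75 with a standard error of 0.42, its 95% interval reached from -0.18 to 1.69, and limma's adjusted p was 0.445. Of the tested probes 12.1% had a larger difference. On array 3, where Gclc was at its highest, Hmox1 had its lowest overventilation value.

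**Figure D1:**
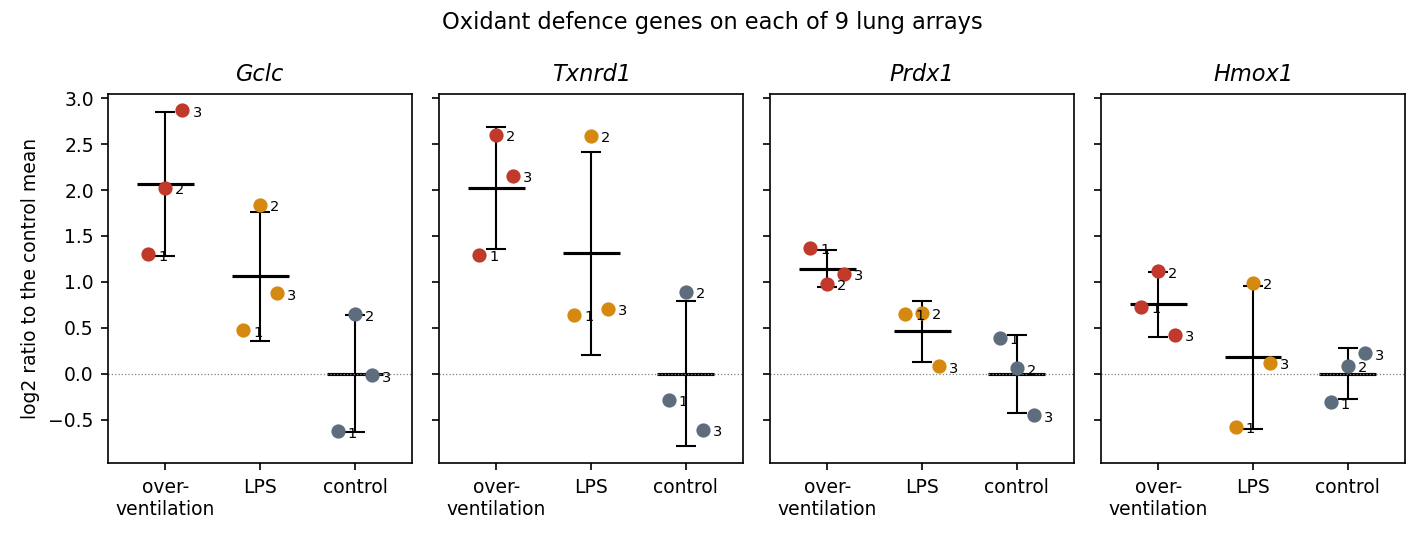
Log2 ratio to the control mean (vertical axis) of each gene on each array, with array numbers beside the points, black lines for group means and bars for the SD (n = 3). All overventilation points lie above all control points in each panel, while LPS array 2 stands well above the other LPS arrays for Gclc, Txnrd1 and Hmox1.

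Injected endotoxin was set against control in the same way. After LPS the means of Gclc and Txnrd1 were higher than in controls by 2.09-fold and 2.48-fold, that of Prdx1 by 1.38-fold, and that of Hmox1 by 1.13-fold. For 0 of the 4 genes were the groups free of overlap in the higher direction, as they were at 2.24% of tested probes, and none passed limma's test (adjusted p = 1 for each). Before adjustment 0 of the 4 had p under 0.05, against 2.07% of tested probes.

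Gclc lay at 0.47, 1.83 and 0.88 on LPS arrays 1 to 3, so the lowest LPS value was under the highest control value of 0.65. Its log2 difference from control was 1.06 with a standard error of 0.52 (95% interval -0.11 to 2.23). Txnrd1 lay at 0.64, 2.59 and 0.71 on LPS arrays 1 to 3, with 2 of the 3 under the highest control value of 0.89. Its log2 difference was 1.31 (95% interval -0.06 to 2.68), and 0.67 without LPS replicate 2. That of Gclc was 0.67 without the same replicate. Array 2 thus carried much of both means.

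Prdx1 lay at 0.65, 0.66 and 0.08 on LPS arrays 1 to 3 and its log2 difference from control was 0.46 (95% interval -0.28 to 1.21). Hmox1 lay at -0.57, 0.99 and 0.12, a range wider than that of the other groups, around a log2 difference of 0.18 (95% interval -0.76 to 1.12). Without LPS replicate 2 the Hmox1 difference turned to -0.23.

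Same-numbered arrays of the LPS and control groups deviated together over all tested probes, although no label states that a number marks a pair. Taken by number, the log2 difference of Gclc between LPS and control arrays was 1.10, 1.19 and 0.89, that is 1.06 ± 0.15 (SD, n = 3). That of Txnrd1 was 0.92, 1.69 and 1.32, and that of Prdx1 was 0.26, 0.60 and 0.53. That of Hmox1 was -0.26, 0.90 and -0.10. With the replicate number as a block, adjusted p for LPS against control was 0.826 for Gclc, Txnrd1 and Prdx1 and 0.964 for Hmox1, so no call resulted. Before adjustment the block gave p under 0.05 for 2 of the 4, Txnrd1 and Gclc, against 5.5% of tested probes, where the fit without the block gave 0 of 4.

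Overventilated and LPS-treated lungs were then set against each other. The means of all 4 genes were higher after overventilation, by 2.00-fold for Gclc, 1.63-fold for Txnrd1, 1.60-fold for Prdx1 and 1.49-fold for Hmox1. Prdx1 was the 1 gene of 4 with no overlap, its lowest overventilation value of 0.98 lying above its highest LPS value of 0.66, a pattern of 5.71% of tested probes. None passed limma's test, with adjusted p between 0.548 for Prdx1 and 0.723 for Txnrd1, and 0 of the 4 had an unadjusted p under 0.05, against 9.51% of tested probes. With the replicate number as a block, 2 of the 4 did, Gclc and Prdx1, against 14.7% of tested probes, although array number 3 showed little sign of pairing here (correlation 0.038). Leaving out 1 array moved the log2 difference of Gclc to between 0.60 without overventilation replicate 3 and 1.39 without LPS replicate 2. That of Txnrd1 lay between 0.37 without LPS replicate 1 and 1.35 without LPS replicate 2, and was 1.07 without overventilation replicate 1, 0.42 without overventilation replicate 2 and 0.41 without LPS replicate 3. That of Hmox1 lay between 0.20 without LPS replicate 1 and 0.98 without LPS replicate 2. That of Prdx1 stayed between 0.49 and 0.78. The 95% intervals of the log2 difference were -0.16 to 2.17 for Gclc, -0.67 to 2.08 for Txnrd1, -0.07 to 1.43 for Prdx1 and -0.36 to 1.52 for Hmox1. For Txnrd1 the highest arrays of both groups were almost equal, at 2.60 on overventilation array 2 and 2.59 on LPS array 2. A moderated F test over the 3 groups gave adjusted p of 0.425 for Gclc, 0.452 for Txnrd1 and Prdx1 and 0.711 for Hmox1, against 0% of probes called. Its unadjusted p was under 0.05 for 3 of the 4, Hmox1 again the exception, and for 10.4% of tested probes.

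**Figure D2:**
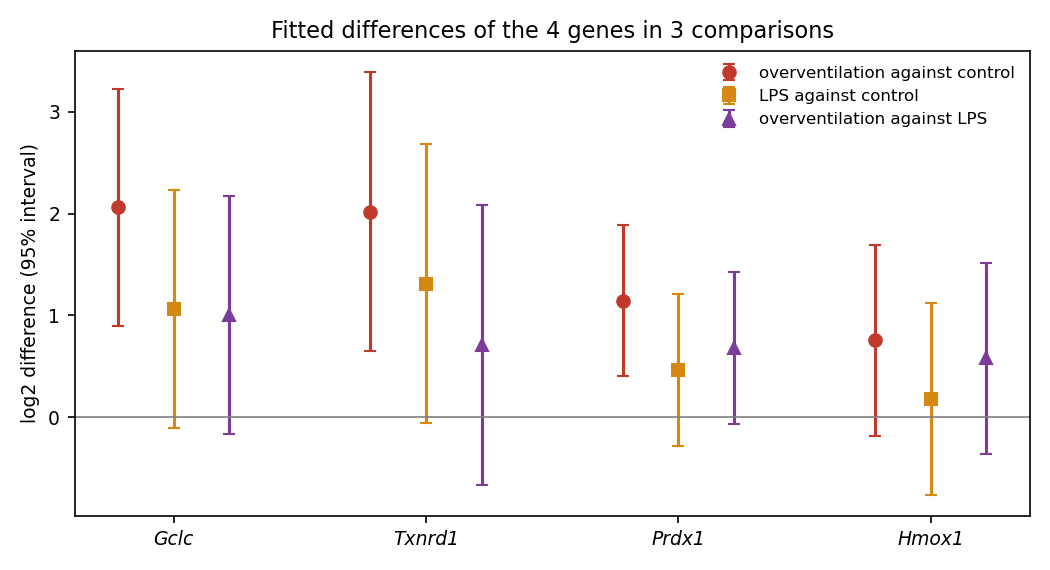
Fitted log2 difference of each gene (vertical axis) with its 95% interval from limma, for overventilation against control (circles), LPS against control (squares) and overventilation against LPS (triangles). Before adjustment for the number of probes, the intervals of overventilation against control lie above 0 for Gclc, Txnrd1 and Prdx1 and reach below it for Hmox1.

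The 4 genes did not share one pattern. Over the 9 arrays Gclc and Txnrd1 were the most alike, with a Pearson correlation of 0.91, and 0.78 for deviations from the group means. Prdx1 correlated with Gclc at 0.65 and with Txnrd1 at 0.69 over the 9 arrays, but at -0.21 and 0.17 within groups. Hmox1 correlated with Txnrd1 at 0.75 over the arrays and 0.66 within groups, and with Prdx1 at 0.43 and -0.22. These are descriptions over 9 arrays that the genes share, so anything common to an array enters all of them. The mean of the 4 genes was 1.17, 1.68 and 1.63 in the overventilation group (arrays 1 to 3), 0.30, 1.52 and 0.45 in the LPS group and -0.21, 0.42 and -0.21 in the control group. Number 2 was the highest in every group.

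Among 5154 tested probes of other named genes, the closest to Gclc over the 9 arrays were those of Calu, a calcium-binding protein of the endoplasmic reticulum, the interferon-induced chemokine gene Cxcl10 and Sh3pxd2a, an adaptor of invadopodia, with correlations of 0.988, 0.987 and 0.986. Cxcl10 lay at 2.41, 3.01 and 5.23 on overventilation arrays 1 to 3, against -0.84, 1.08 and -0.23 on control arrays 1 to 3, the same order of arrays as Gclc within both groups. Closest to Txnrd1 were the phosphatase gene Ptpn12 (0.960), Gm8989 (0.951) and the interferon-induced GTPase gene Irgm1 (0.941). Closest to Prdx1 were the immediate early gene Ier2 (0.948), the cytoskeletal linker gene Ezr (0.933) and the matrix glycoprotein gene Tnc (0.925). Closest to Hmox1 were the scaffold gene Dlg1 (0.945), the cytokine gene Tgfb1 (0.945) and Fbxo30 (0.936). None of these 12 is in the oxidant defence lists described next, which says little. Those lists hold 70 tested genes, a small part of the 5154 probes.

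**Figure D3:**
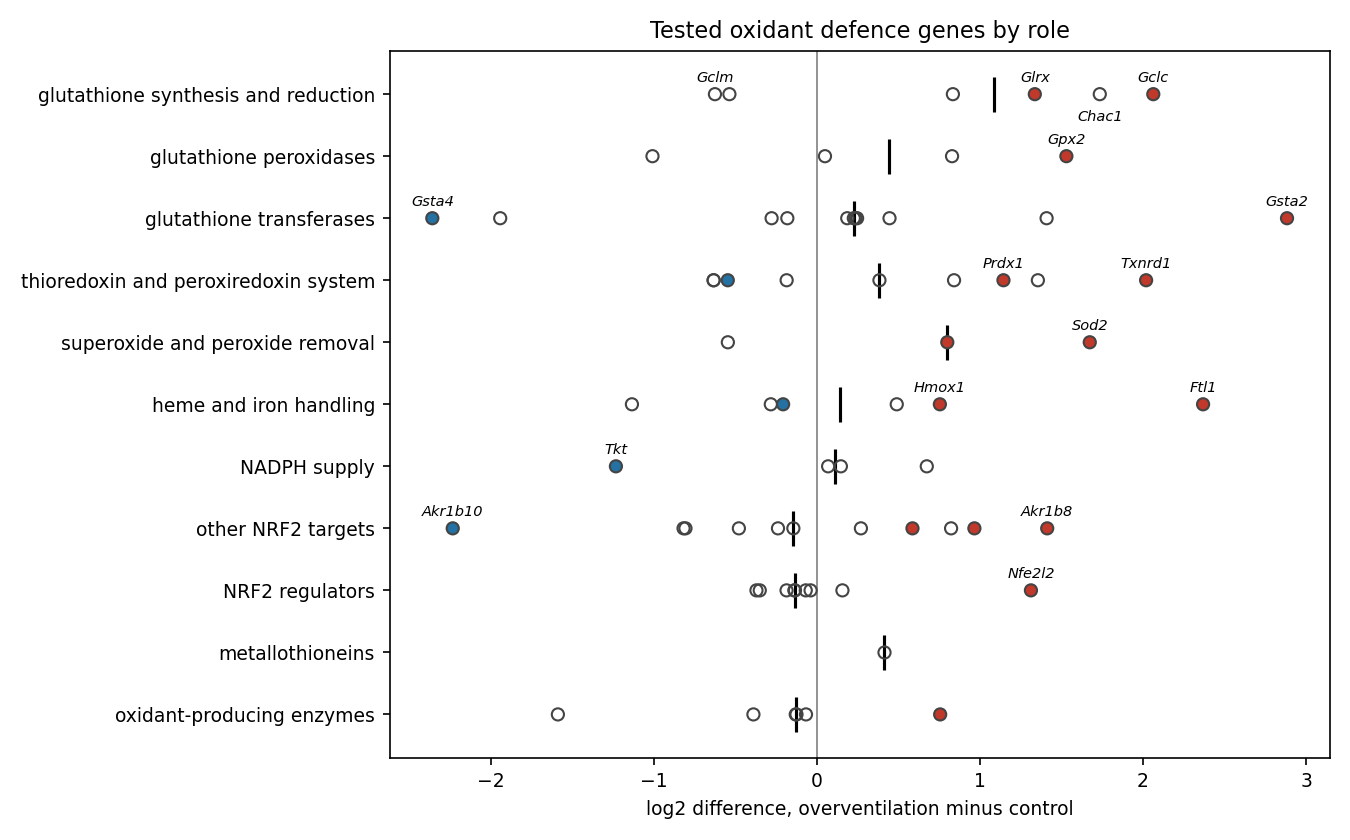
Log2 difference between overventilation and control (horizontal axis) of the 70 tested genes of 11 oxidant defence lists. Each circle is a gene, red where all overventilation arrays lie above all control arrays, blue where all lie below, and open where the groups overlap, and black bars are list medians. Genes with no overlap lie on both sides, with Gsta2 at 2.88 and Gsta4 at -2.36 in the same list.

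To place the 4 genes in their pathway, 136 genes of oxidant defence, the 4 included, were listed by role. The lists, too, were chosen with earlier results of these data known, so the shares below are descriptions. Of these, 70 were tested, 34 had a probe but lay too close to the floor, 10 of them on all 9 arrays, and 32 have no probe named for them here. None of the 70 passed limma's test over all probes in any comparison. After overventilation, 15 of 70 lay above all controls without overlap (21.4%, against 9.12% of all tested probes) and 5 of 70 below (7.14%, against 10.5%). One of the 15, Cbr3, was above the common floor on no control array and passed the filter on low values through its 3 overventilation arrays and 1 LPS array, so it had to lie higher. Without it the count was 14 of 69 (20.3%). Without the 4 genes the counts were 11 and 5 of 66. The median log2 difference of the 70 was 0.06, beside -0.01 for all tested probes, with 36 of the 70 on the higher side and 34 on the lower. Without the 4 genes that median was -0.05, with 32 of 66 on the higher side and 34 on the lower. Counts of this kind grow when an array is left out, for the lists as for all probes. Without overventilation replicate 1, 25 of the 70 were above (18.5% of all probes), and without overventilation replicate 2, 16 were below (20.6% of all probes). Without control replicate 1, 9 were below (16.3% of all probes). After LPS, 2 of 70 lay above all controls (2.24% of all probes) and 1 below (4.08%). The median was 0.02, and -0.02 without the 4 genes, beside -0.05 for all tested probes. Leaving out 1 array gave 2 to 9 above, the most without LPS replicate 1 (12.9%, against 12.5% of all probes), and 2 to 13 below, the most without LPS replicate 2 (18.6%, against 9.35%). Of overventilation against LPS, 6 of 70 lay above without overlap (5.71% of all probes), namely Gsta2, Ftl1, Gpx2, Akr1b8, Sod1 and Prdx1, and 2 below (5.46%), Gsta4 and Akr1b10. The median of this comparison was 0.24, and 0.10 without the 4 genes, beside 0.07 for all tested probes. Here leaving out 1 array gave 6 to 20 above, the most without LPS replicate 2 (28.6%, against 13.4% of all probes), and 3 to 12 below, the most without overventilation replicate 2 (17.1%, against 15.9%).

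Glutathione synthesis and reduction had 6 tested genes, with a median log2 difference of 1.09 between overventilation and control and 4 of 6 on the higher side. Without overlap were 2, Gclc and the glutaredoxin gene Glrx, beside 9.12% of all tested probes. Glrx lay at 0.76, 0.78 and 2.47 on overventilation arrays 1 to 3, against -0.95, 0.26 and 0.69 on control arrays 1 to 3, a small gap, and is among the 110 probes that stood out on overventilation array 3. So is Chac1, an enzyme gene of glutathione breakdown, which lay at 0.42, 1.13 and 3.66 on overventilation arrays 1 to 3 and overlapped the controls. Gclm, the modifier subunit that pairs with Gclc in the same enzyme, did not go with it after overventilation. It lay at -0.93, 0.96 and -1.91 on overventilation arrays 1 to 3, against 0.35, 0.42 and -0.77 on control arrays 1 to 3, with a log2 difference of -0.62 (adjusted p = 0.719). On overventilation array 3 Gclc was thus at its highest and Gclm at its lowest. On overventilation arrays 1 and 3, 139 tested probes (2.43%) lay more than 1.5 below all 7 other arrays. Gclm is not among them, and the part of that pattern in its difference was not tested. After LPS the Gclm difference from control was 0.52 with overlap, on the same side as that of Gclc. The cystine transporter gene Slc7a11, which supplies the cysteine for glutathione, lay at 1.32, 1.25 and -0.07 on overventilation arrays 1 to 3, within the control range on the last.

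In the thioredoxin and peroxiredoxin system Txnrd1 and Prdx1 were the 2 of 9 tested genes that lay above all controls (9.12% of all tested probes), and Prdx2 the 1 that lay below (10.5%). The median log2 difference of the 9 was 0.38. Prdx2, a peroxiredoxin abundant in red blood cells, lay at -0.55, -0.42 and -0.67 on overventilation arrays 1 to 3, against -0.26, 0.30 and -0.04 on control arrays 1 to 3. The mitochondrial reductase gene Txnrd2 had a log2 difference of -0.19, and the mitochondrial and endoplasmic reticulum peroxiredoxin genes Prdx3 and Prdx4 had differences of 0.38 and 0.84, all with overlap. Txnip, whose product inhibits thioredoxin, was without overlap after LPS, with a log2 difference of 0.99, and with 1.36 and overlap after overventilation.

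Of 6 tested genes of heme and iron handling, Hmox1 and Ftl1 lay above all controls, as did 9.12% of all tested probes. Ftl1, the ferritin light chain gene, which stores the iron that heme breakdown releases, lay at 1.53, 1.62 and 3.96 on overventilation arrays 1 to 3, against 0.01, 0.94 and -0.96 on control arrays 1 to 3, and its log2 difference was 2.37 (SE 0.68, limma adjusted p = 0.201). It is among the 110 probes whose value on overventilation array 3 lay more than 1.5 above all other arrays. The constitutive heme oxygenase gene Hmox2 lay at or under the common floor on overventilation arrays 1 and 3 and at -0.16 on array 2, so its log2 difference of -1.13 (adjusted p = 0.314) is too small in size. The haptoglobin gene Hp lay below all controls with a log2 difference of -0.21.

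The enzymes that use glutathione were split. Gsta2, a glutathione transferase of the alpha class, had the highest difference of all 70 genes. It lay at 2.24, 2.50 and 3.91 on overventilation arrays 1 to 3, against 0.28, 0.12 and -0.40 on control arrays 1 to 3, and its log2 difference was 2.88 (SE 0.49, limma adjusted p = 0.193). Its LPS values of -0.28, 0.61 and 0.89 all lay below its overventilation values. Close relatives of the alpha class share sequence, and the sources used here do not say how specific the probe is. Gsta4, of the same class, lay at -3.00, -0.41 and -3.67 on overventilation arrays 1 to 3, against 0.04, 0.02 and -0.06 on control arrays 1 to 3. It is 1 of 139 tested probes (2.43%) that lay more than 1.5 below all 7 other arrays on overventilation arrays 1 and 3, whose medians were -2.95, -0.20 and -3.14 on overventilation arrays 1 to 3. The part of that pattern in the Gsta4 difference was not tested. Over the 11 tested transferases the median log2 difference was 0.23. Of 4 tested glutathione peroxidases, Gpx2 lay above all controls, as did 9.12% of all tested probes. Gpx2 had a log2 difference of 1.53 and a value of 2.80 on overventilation array 3, where it is also among the 110. After LPS, Gstm5 lay below all controls, with a log2 difference of -0.75.

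Of superoxide and peroxide removal, 2 of 3 tested genes lay above all controls after overventilation, as did 9.12% of all tested probes. Sod2, the mitochondrial superoxide dismutase gene and also an NF-kB target, had a log2 difference of 1.67 after overventilation and 1.32 after LPS, without overlap in both comparisons, which share their controls. Both gaps were small, with a highest control value of 0.603 against lowest values of 0.606 after LPS and 0.648 after overventilation. Sod1, the cytosolic enzyme, had a difference of 0.80 after overventilation and -0.07 after LPS, and catalase (Cat) one of -0.55 after overventilation with overlap. In NADPH supply the transketolase gene Tkt lay at -1.93, -0.64 and -1.13 on overventilation arrays 1 to 3, below all controls, with a log2 difference of -1.23 (adjusted p = 0.214). The median of its 4 tested genes was 0.11.

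Among 11 other NRF2 targets the median log2 difference after overventilation was -0.14, with 3 genes above all controls (9.12% of all tested probes) and 1 below (10.5%). Akr1b8, an aldo-keto reductase gene, lay at 1.56, 1.13 and 1.55 on overventilation arrays 1 to 3, against -0.17, 0.11 and 0.06 on control arrays 1 to 3 (log2 difference 1.41, adjusted p = 0.214). Akr1b10, of the same enzyme family, lay on the opposite side at -2.00, -1.77 and -2.93, with a log2 difference of -2.23 (adjusted p = 0.193). Ugdh had a log2 difference of 0.97, its values on overventilation array 3 and control array 3 both rounding to 0.66. The carbonyl reductase gene Cbr3 was at the common floor on all controls, so its difference of 0.59 is a lower bound.

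Of the regulators, Nfe2l2, the gene of NRF2 itself, was the 1 of 9 tested genes without overlap. That share of 11.1% is near the 9.12% of all tested probes that lay above all controls. It lay at 1.42, 1.04 and 1.48 in the overventilation group (arrays 1 to 3), 0.06, 1.29 and 0.45 in the LPS group, and 0.12, 0.58 and -0.70 in the control group. Its log2 difference between overventilation and control was 1.31 (SE 0.43, limma adjusted p = 0.218), and that between LPS and control was 0.60. Keap1 spread from -1.50 to 1.05 over the controls and had a difference of -0.14 after overventilation, and Bach1 one of -0.37. The median of the 9 regulators was -0.13. Oxidant-producing enzymes had a median of -0.13 over 6 tested genes, with the xanthine dehydrogenase gene Xdh the 1 without overlap (log2 difference 0.76), beside the same 9.12% of all tested probes. The subunit genes Ncf1 and Nox4 of NADPH oxidases lay at the floor on all 9 arrays.

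**Figure D4:**
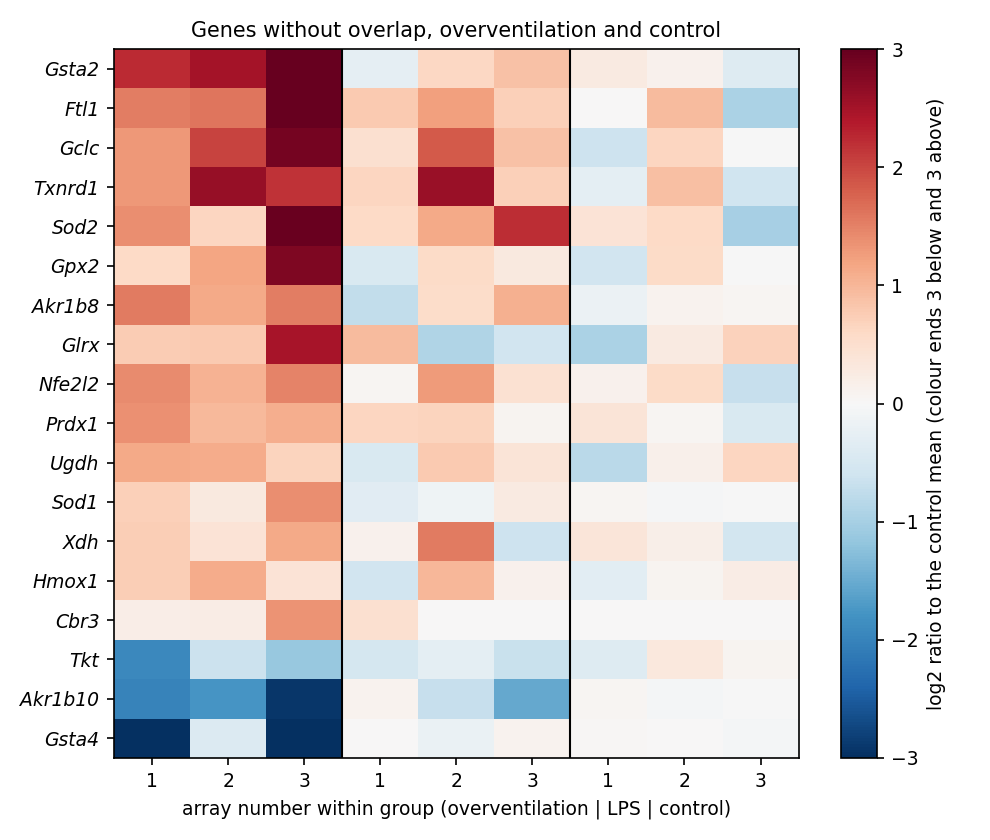
Log2 ratio to the control mean (colour) on each array for the 18 listed genes whose overventilation and control arrays do not overlap and whose log2 difference is 0.58 or more in size, ordered by that difference, a pattern of 7.58% of tested probes on the higher and 9.02% on the lower side. Overventilation array 3 has the deepest colours for Gsta2, Ftl1 and Sod2, and LPS array 2 is the highest of its group for Gclc, Txnrd1, Nfe2l2 and Hmox1.

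Nqo1, a quinone reductase gene widely used as a readout of NRF2, was too close to the floor for the test and was picked out after its values were seen. It lay at the floor on all 3 control arrays and above it on all 3 overventilation arrays, by 0.27, 1.05 and 1.20 log2 units on arrays 1 to 3. Of the LPS arrays it lay above the floor on array 2, by 0.69. The carboxylesterase gene Ces1g showed the same pattern, with 0.13, 1.74 and 1.43 on overventilation arrays 1 to 3 and 0.85 on LPS array 2. These 2 of the 34 untested genes with a probe are set beside 0.405% of the 4690 probes whose floor is known, while the reverse pattern was found in 0 of the 34 and in 0.448% of those probes. The sets are not alike, since the 4690 include tested probes. They also include 1908 at the floor on all 9 arrays, which can show neither pattern, against 10 of the 34. The floor differs between arrays, so the values of Nqo1 and Ces1g are distances from each array's own floor and not fold changes. The glutathione reductase gene Gsr lay above the floor on all 3 overventilation arrays by at most 0.40, and on 1 control array by 0.09.

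Marker lists of cell types also differed in median between the groups, and their part in the results above was not tested. Since the values are ratios, the lung origin of the samples can be checked only by whether marker probes rise above the floor. All 6 alveolar type II markers with a probe were among the tested probes. So were all 3 adipose markers with a probe, and 5710 of all 10012 probes, so this does not tell lung from other tissue. The endothelial markers Cdh5 and Pecam1 lay at the floor on 9 and 8 of 9 arrays. The median of 7 tested macrophage markers was -0.57, -0.42 and -0.32 in the overventilation group (arrays 1 to 3), 0.50, -0.40 and -0.59 in the LPS group and 0.39, 0.18 and -0.36 in the control group. Lyz2, the lysozyme gene of macrophages and neutrophils, went the other way, with 1.73, 1.19 and 4.77 on overventilation arrays 1 to 3, while the macrophage markers Adgre1 and Itgam lay at the floor on 9 and 8 of 9 arrays. The median of 4 tested neutrophil markers lay between -1.04 and -0.15 on overventilation arrays, between -0.88 and -0.24 on LPS arrays and between -0.61 and 0.51 on control arrays, with Elane and Cxcr2 at the floor on 8 of 9 arrays each. Of 2 tested red blood cell markers, Hba-a1 had a log2 difference of -1.90 after overventilation (limma adjusted p = 0.512), with control values of -2.15, -0.03 and 2.18. The other, Ermap, had a difference of -0.08 with overlap, and Slc4a1 lay at the floor on all arrays. Alveolar type I markers had a median over 4 tested genes of 0.51, 0.45 and 3.06 in the overventilation group (arrays 1 to 3), 0.25, 1.00 and 0.58 in the LPS group and -0.02, 0.11 and -0.45 in the control group. Adipose markers had the largest shift of the marker lists, in the LPS group. Over 3 tested genes their median was -0.36, -2.21 and -1.19 in the overventilation group (arrays 1 to 3), -2.12, -5.28 and -1.93 in the LPS group and 0.75, 0.93 and -1.70 in the control group. LPS array 2, lowest for these markers, is the array with the highest LPS values of all 4 genes, though for Prdx1 only by 0.66 against 0.65 on array 1. Overventilation array 2 was likewise lowest for the markers and highest in the mean of the 4 genes (1.68). Among controls the order was the reverse, array 2 being highest in both (0.93 and 0.42). A link between the adipose markers and the 4 genes was not tested. The median log2 difference of the 3 markers between LPS and control was -2.98, and 2 of the 3 lay below all controls (4.08% of all tested probes).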

How the data were processed

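The authors' deposited table holds, for 9 lung arrays, a ratio per probe on a linear scale. In each of the 10012 probes the control log2 ratios average 0 (largest deviation 2.5e-09). Not given in the sources used here are the array maker, dyes, scanner, scaling and build. Depth does not apply: the number of arrays limits precision. Genes came from the platform annotation (8983 probes with 1 symbol, 8975 with a gene ID in the reference table, 0 symbols updated, 1029 probes unnamed).

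At 4690 probes, 2 or more arrays shared a fixed floor pattern (tolerance 1e-06, log2). There, values were raised to the highest floor (ratio 2.222 to the control mean), that of overventilation array 3, and centred on the controls again. With that array left out, the highest floor was lower and 6393 probes were tested. A probe was tested if above it on 3 or more arrays, or if no 2 arrays were at a floor (5710 probes). Where a gene has several probes, the probe with most arrays above the floor was taken. No normalization was added.

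Groups follow the sample descriptions. The 3 groups were fitted with limma 3.58.1 in R 4.3.3 (lmFit, eBayes, two-sided, Benjamini-Hochberg over all tested probes, threshold 0.05), tested on simulated data first. The design assumed no unit, and ratios were analysed as log2 values. Exact permutation tests used scipy 1.17.1. Deviations of same-numbered arrays correlated at 0.497, 0.247 and 0.199 between LPS and control, each over 0.1. As no label states a pairing, the main fit took none, and the replicate number entered as a block only in an alternative fit. Between overventilation and control the correlations were 0.508, 0.133 and 0.033. The 4 genes and the lists were chosen with earlier results of these data known. Named were the 4 genes, list genes without overlap and with a log2 difference of at least 0.58 (up to 10 per direction), and the 3 named probes most like each gene. Genes named besides were chosen after their values were seen. Alternatives were other floors, filters, normalizations, weights, a replicate block and leaving out each array.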

Additional observations from a re-analysis of the deposited data

How the results depend on the processing

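None of the 4 genes passed limma's adjusted threshold in any of the 3 comparisons or in the F test under any alternative run. For overventilation against control the log2 difference kept its sign in all 19 alternatives, between 1.37 and 2.45 for Gclc, 1.32 and 2.47 for Txnrd1, 0.67 and 1.34 for Prdx1 and 0.43 and 0.92 for Hmox1, and the lowest adjusted p were 0.105, 0.122, 0.122 and 0.252. For LPS against control the Hmox1 difference lay between -0.23 and 0.55 when 1 array was left out, negative without LPS replicate 2. With the replicate block adjusted p for overventilation against control was 0.122 for Gclc, Txnrd1 and Prdx1, and the block changed no call. The number of probes called was 0 in all 3 comparisons (unadjusted p under 0.05 at 850, 118 and 543 probes). Leaving out 1 array it ranged from 0 to 290 for overventilation against control, the most without overventilation replicate 2, from 0 to 1 for LPS against control and from 0 to 226 for overventilation against LPS, again the most without overventilation replicate 2. The median difference of the listed genes lay between 0.039 and 0.24 for overventilation against control, between -0.036 and 0.15 for LPS against control, where it changed sign, and between 0.016 and 0.28 for overventilation against LPS when 1 array was left out. Over all 19 alternatives the median for overventilation against control was 0.00 at the lowest. For overventilation against LPS it was 0.00 with no filter and 0.030 with quantile normalization. Counts of listed genes without overlap, recomputed without single arrays after seeing the data, ranged from 16 to 25 higher (18.5% of all probes beside the 25) and 6 to 16 lower (20.6% beside the 16) for overventilation against control, 2 to 9 (12.5% beside the 9) and 2 to 13 (9.35% beside the 13) for LPS against control, and 6 to 20 (13.4% beside the 20) and 3 to 12 (15.9% beside the 12) for overventilation against LPS. The causes were not tested, beyond fewer arrays making an overlap less likely. Values near the floor limit Hmox2, Cbr3, Nqo1 and Ces1g.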
